A study of Rattus norvegicus with 4 samples.

Results

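The phospholipases A2 and D and the lysophospholipid acyltransferases of rat spleen cells were examined after liposomes were given. The 10 genes are Pla2g4a, Pla2g5, Pla2g7, Pla2g15, Pld1, Pld2, Pld3, Pld4, Lpcat2 and Lpcat3. They were found as the non-control array probes that carry these gene names, which gave 11 probes for 9 of the 10 genes among 30367 probes and 22136 gene names in all. No probe is named Lpcat2. Of the 11 probes, 10 passed the filter on dim signal (well above background on both saline arrays, both liposome arrays or all of them), and they covered all 9 genes. On the liposome arrays the lysosomal phospholipase gene Pla2g15 was 2.64-fold higher, the lysosomal gene Pld3 was 3.54-fold higher and the secreted phospholipase gene Pla2g5 was at least 2.53-fold lower. The other 6 genes did not pass the test, and they lay between 1.50-fold lower and 1.67-fold higher.

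Male WKAH rats aged 8 to 12 weeks were injected with saline or with liposomes, and spleens were taken 24 h later. Splenocytes were depleted of MHC class II positive cells and then enriched for CD11b/c positive cells on magnetic beads, in both groups alike, and their total RNA was hybridised to one-colour Agilent arrays. Each group has 2 arrays, called saline 1, saline 2, liposome 1 and liposome 2 after the number in the sample titles. The titles end in exp1 or exp2, each on 1 saline and 1 liposome array, and what this marks is not stated. Whether the arrays came from separate animals, and what the liposomes were made of or at what dose they were given, is not stated in the labels. The p-values therefore reflect how far these particular arrays spread, and that spread can be technical.

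Phospholipids are taken apart and rebuilt continuously. A phospholipase A2 cuts the fatty acid from the middle position of the glycerol backbone and leaves a lysophospholipid, a phospholipase D cuts off the head group and leaves phosphatidate, and a lysophospholipid acyltransferase puts a fatty acid back. In macrophages, which degrade ingested membranes in lysosomes, these enzymes also supply arachidonate for prostaglandins and leukotrienes and make or remove platelet-activating factor.

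The probes of the phospholipase D genes show what the array reads of that family. Of the 4 genes, Pld1 and Pld2 are the classical enzymes, while the proteins of Pld3 and Pld4 share the fold but act in lysosomes on single-stranded nucleic acid. The probes of Pld2 and Pld3 join exons, since their 60 bases span 236 and 154 bases of the genome (rn4), and that of Pld4 lies in 60 contiguous bases. The capitals in the Pld2 probe mark its bases 5 to 28, the codons of a histidine, lysine and aspartate (HKD) motif, the catalytic signature of the family.
Pld2 (chr10:57435435-57435670, plus strand): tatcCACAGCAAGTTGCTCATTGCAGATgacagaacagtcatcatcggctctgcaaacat
Pld3 (chr1:82613280-82613433, minus strand): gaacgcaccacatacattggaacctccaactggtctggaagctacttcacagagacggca
Pld4 (chr6:137749979-137750038, plus strand): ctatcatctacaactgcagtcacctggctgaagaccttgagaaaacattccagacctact
Among the 55 pairs of the 11 probes, the longest run of bases shared by a pair on either strand was 9. The 9 genes lie on 9 chromosomes.

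The promoters of Pla2g15 and Pld3 are shown because these are the members that passed as higher. Whether they share a control was not tested. The 250 bases before the start of each come from RefSeq on the assembly GRCr8, whose table held a promoter for all 10 genes.
Pla2g15 (chr19:50960406-50960655, plus strand): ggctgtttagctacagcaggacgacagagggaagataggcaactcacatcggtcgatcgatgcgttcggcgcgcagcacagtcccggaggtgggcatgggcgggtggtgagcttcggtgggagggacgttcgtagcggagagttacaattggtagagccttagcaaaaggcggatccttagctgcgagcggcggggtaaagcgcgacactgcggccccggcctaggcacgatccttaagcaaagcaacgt
Pld3 (chr1:91961208-91961457, minus strand): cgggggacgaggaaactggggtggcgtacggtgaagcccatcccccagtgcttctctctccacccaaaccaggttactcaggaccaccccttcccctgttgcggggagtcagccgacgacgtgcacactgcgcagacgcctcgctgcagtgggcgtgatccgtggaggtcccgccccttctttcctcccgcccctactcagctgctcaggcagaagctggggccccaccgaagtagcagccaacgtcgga
Windows of 300 bases, 250 before and 50 after the start, were searched on both strands for 4 motifs. The E-box CACGTG was found in 6.42% of 33469 rat promoters, its extended form TCACGTGA, the core of the element shared by lysosomal genes, in 0.777%, and the sterol regulatory element TCACNCCAC in 1.12%. A direct repeat of AGGTCA with 4 free bases (DR4), which liver X receptors bind, was found in 2.93% when 2 mismatches in its 12 fixed bases were allowed. TCACGTGA contains CACGTG, so a promoter with the first also counts for the second. None of the 4 lies in the Pla2g15 or the Pld3 window. Among the 10 promoters there were 2 matches, TCACNCCAC at 237 bases before the start of Pld4 and DR4 at 235 bases before that of Pla2g4a.

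On each array 61.3% to 66.3% of the 42877 non-control spots lay well above background and none was saturated. Of 12858 genes tested with limma, 8.89% passed an adjusted p threshold of 0.05, 621 higher and 522 lower on the liposome arrays. With median scaling these were 852 and 442. Marker genes of the sorted fraction and of cells that could accompany it were read as the sum of a list's intensities, each relative to its array's 75th percentile. The brightest probes weigh most in such a sum. Macrophage markers, 14 of 16 measured, summed to 120 and 118 on the saline arrays and to 95.7 and 86.2 on the liposome arrays, where 1 rose and 7 fell. The largest term of the liposome sums, Cd68, lay higher by a log2 difference of 0.76 without passing (limma adjusted p = 0.0540). The median log2 difference of these markers was -0.50, with 4 higher and 10 lower. Neutrophil markers (12 of 14 measured, 0 rose, 7 fell) went from 269 and 312 to 156 and 178, and erythroid markers (9 of 15, 0 rose, 6 fell) from 88.4 and 91.3 to 34.0 and 32.7. Monocyte markers (8 of 9, 0 rose, 4 fell) went from 239 and 229 to 180 and 189. Of these, 3 lay higher and 5 lower, with a median log2 difference of -0.56. The largest term of the monocyte sums, S100a4, differed by -0.13, and the next largest, Nr4a1, by -1.16, so this sum follows few genes. B cell markers (12 of 13) went from 77.6 and 73.5 to 54.6 and 42.0. Here 12 of 12 lay lower without overlap, beside 35.1% of all genes, and 0 passed by limma. At an unadjusted p under 0.05 there were 8, beside 4181 of all 12858 genes. With the title number as a block 5 fell, beside 988 of all 12858 genes. Genes of MHC class II, against which the cells were selected, were measured for 9 of 10 and summed to 448 and 407, and to 317 on both liposome arrays. Their part in the results below was not tested, and in bulk RNA fewer cells of a type and less RNA per cell cannot be told apart.

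By limma with Benjamini-Hochberg adjustment over all 12858 genes, 3 of the 9 genes measured passed, or 33.3%, beside 8.89% of all genes. Of these, 2 rose (background 4.83%) and 1 fell (background 4.06%). The one that fell, Pla2g5, passed the filter on dim signal only through the saline arrays, where it was high. The genes were chosen with earlier results of these data known, so a higher share than that of all genes is no independent result. The saline and liposome arrays did not overlap for any of the 9 genes, which also held for 65.5% of all genes tested. Of the 9, 7 lay higher and 2 lower on the liposome arrays without overlap, beside 30.4% and 35.1% of all genes. Counted by probe, 3 of 10 passed, beside 6.74% of all probes tested. The median log2 difference, liposome minus saline, was 0.44 over the 9 genes and -0.035 over all genes, and it was the same with genes that have only a bound set at that bound.

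**Figure D1:**
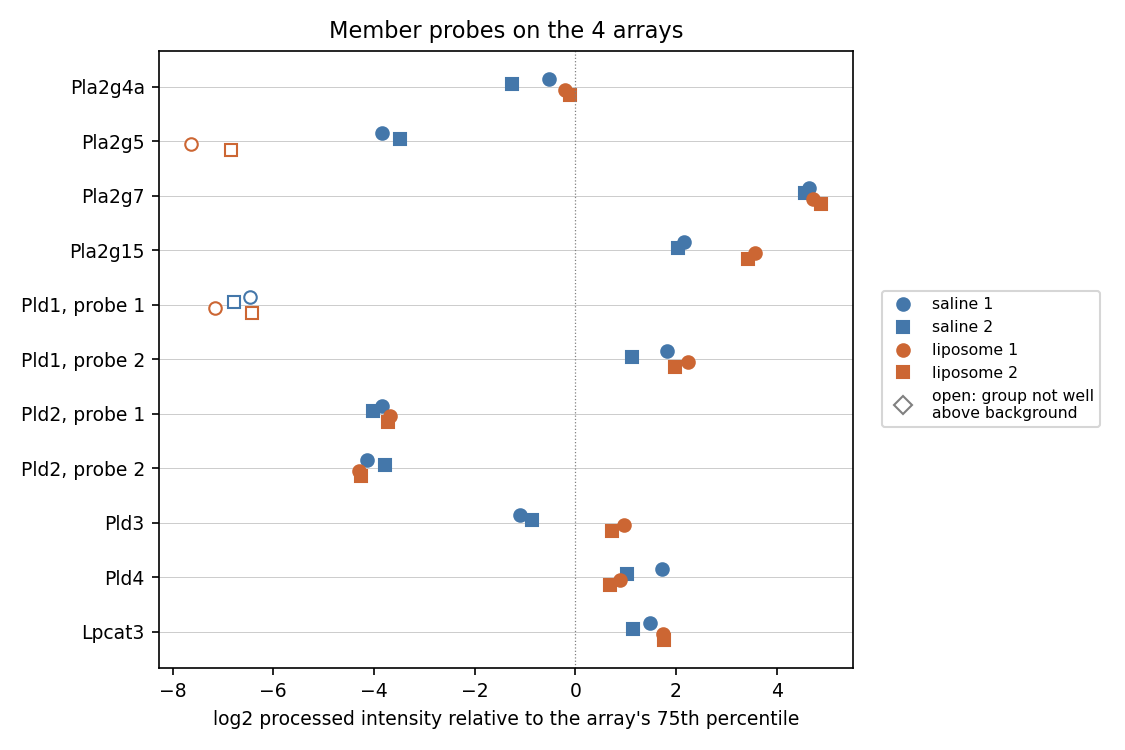
Log2 processed intensity relative to the array's 75th percentile (x axis) for the 11 probes (y axis), 1 symbol for each of the 4 arrays. Open symbols mark a group in which the probe was not well above background on either array. The saline and liposome symbols of Pla2g15, Pld3 and Pla2g5 stand far apart, while the saline symbols of Pla2g4a, Pld1 and Pld4 spread about as widely as their groups differ. Levels of different probes cannot be compared.

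Pla2g15 encodes the phospholipase A2 that works inside lysosomes, where it degrades phospholipids of ingested membranes. Its probe (rn4 chr19:36015132-36015191, plus strand) read processed intensities of 4333 on saline 1 and 4081 on saline 2, and of 12919 on liposome 1 and 11427 on liposome 2. Both liposome arrays were far above both saline arrays, and the 2 arrays of each group lay close together. The log2 difference was 1.40 ± 0.11 (SE, n = 2 arrays per group), or 2.64-fold, with a limma adjusted p of 0.0140 and a 95% interval of 1.10 to 1.70.

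Pla2g5 encodes a secreted phospholipase A2 that macrophages and other cells release. Its probe (rn4 chr5:157620324-157620383, minus strand) read 67.7 on saline 1 and 88.4 on saline 2, but 5.49 on liposome 1 and 9.17 on liposome 2. It was well above background on both saline arrays and on neither liposome array, so only a bound can be given. Against the lowest signal that counted as well above background, or the probe's own where that was higher, it was at least 2.53-fold lower on the liposome arrays. The fitted difference of -3.58 ± 0.31 (SE, n = 2 per group) gave a limma adjusted p of 0.0160, but both rest on liposome values within the background. The filter on dim signal kept this probe only for its saline arrays, which favours a fall, so the p-value adds nothing to the bound. With normexp background correction, which adds 50 to each signal, the fitted difference was -1.28. The bound ranged from 1.91 to 3.35-fold with 1 array left out.

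Pla2g5 lies in a cluster of secreted phospholipase A2 genes, where the order on chromosome 5 in the reference table is Pla2g2c, Pla2g2f, Pla2g2d, Pla2g5, Pla2g2a and Pla2g2e. These neighbours were picked as the secreted phospholipase A2 genes of the cluster, after their values were seen. Of the other genes tested that start within 500000 bases of Pla2g5, only Tmco4 passed, and it fell (log2 difference -0.62, limma adjusted p = 0.0376). Pla2g2d, which encodes a secreted enzyme of lymphoid tissue, read 10958 and 9562 on the saline arrays and 14271 and 12931 on the liposome arrays. Its liposome arrays lay above its saline arrays, and the log2 difference of 0.28 did not pass (limma adjusted p = 0.219). Pla2g2c (0.39), Pla2g2f (-0.47) and Pla2g2e (-0.14) did not pass either (limma adjusted p = 0.569, 0.118 and 0.610), and Pla2g2a was not well above background on any array. The difference between Pla2g5 and its neighbours was not tested.

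Pla2g4a encodes the cytosolic phospholipase A2 that releases arachidonate from membranes. Its probe (rn4 chr13:64146152-64146211) read 672 on saline 1 and 416 on saline 2, and 953 and 986 on the liposome arrays. The liposome arrays agreed closely and lay above both saline arrays, while saline 2 was clearly the lowest. The log2 difference of 0.74 ± 0.27 (SE, n = 2 per group; 95% interval 0.0073 to 1.47) did not pass (limma adjusted p = 0.151). Without saline 1 it was 1.11 (limma adjusted p = 0.0480), and without saline 2 it was 0.37.

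Pla2g7 encodes the secreted acetylhydrolase that inactivates platelet-activating factor, and macrophages are a main source of it. Its probe (rn4 chr9:13058036-13058095) read 24075 and 23414 on the saline arrays and 29000 and 31211 on the liposome arrays. The groups did not overlap, but they lay close. The log2 difference was 0.21 ± 0.11 (SE, n = 2 per group; limma adjusted p = 0.267), with a 95% interval of -0.092 to 0.51.

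Among the phospholipases D, Pld3 was the only one of the 4 to pass. Its probe, printed above, read 453 on saline 1, 545 on saline 2, 2129 on liposome 1 and 1743 on liposome 2. Both liposome arrays stood well above both saline arrays. The log2 difference was 1.82 ± 0.14 (SE, n = 2 per group; 95% interval 1.43 to 2.21), or 3.54-fold, with a limma adjusted p of 0.0139.

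Pld4, whose protein is also a lysosomal exonuclease and is known from myeloid and plasmacytoid dendritic cells, lay the other way. It read 3177 on saline 1, 2026 on saline 2, 2015 on liposome 1 and 1697 on liposome 2. Saline 1 stood alone at the top, and saline 2 and liposome 1 were nearly equal in raw intensity. The log2 difference of -0.59 ± 0.26 (SE, n = 2 per group; 95% interval -1.30 to 0.13) did not pass (limma adjusted p = 0.208). Plasmacytoid and other dendritic cell markers, 11 of 14 measured, summed to 48.3 and 46.2 on the saline arrays and to 32.6 and 33.1 on the liposome arrays, with 0 that rose and 3 that fell, and their part in this value was not tested.

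Pld1 and Pld2 encode the enzymes that make phosphatidate from phosphatidylcholine. The probe of Pld1 that passed the filter (rn4 chr2:115459978-115460037) read 3407 on saline 1 and 2181 on saline 2, and 5150 and 4147 on the liposome arrays. Saline 2 was again the lowest, and the groups did not overlap. The log2 difference was 0.63 ± 0.27 (SE, n = 2 per group; 95% interval -0.099 to 1.36; limma adjusted p = 0.193). A further Pld1 probe (rn4 chr2:115460441-115460500) was not well above background on any array, at 7.65 to 12.2.

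Pld2 was read by a probe printed in 10 spots on each array and by another in 1 spot, and the probes disagreed. The probe in 10 spots read 67.5 and 61.0 on the saline arrays and 84.8 and 79.6 on the liposome arrays, as geometric means of the spots kept. Its liposome arrays lay above its saline arrays by a log2 difference of 0.22 ± 0.11 (SE, n = 2 per group; limma adjusted p = 0.253). The other probe (rn4 chr10:57438685-57438744) read 54.6 and 72.4 on the saline arrays and 55.5 and 54.9 on the liposome arrays. In that probe saline 2 stood above the other 3 arrays, and the log2 difference was -0.32 ± 0.16 (SE, n = 2 per group; limma adjusted p = 0.247 over all probes). The mean of the probes gave -0.048, so no direction can be given for Pld2. Spots of the first probe had a coefficient of variation of 11.8% to 23.0% within an array, a spread between copies of a dim probe that does not include any difference between samples.

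**Figure D2:**
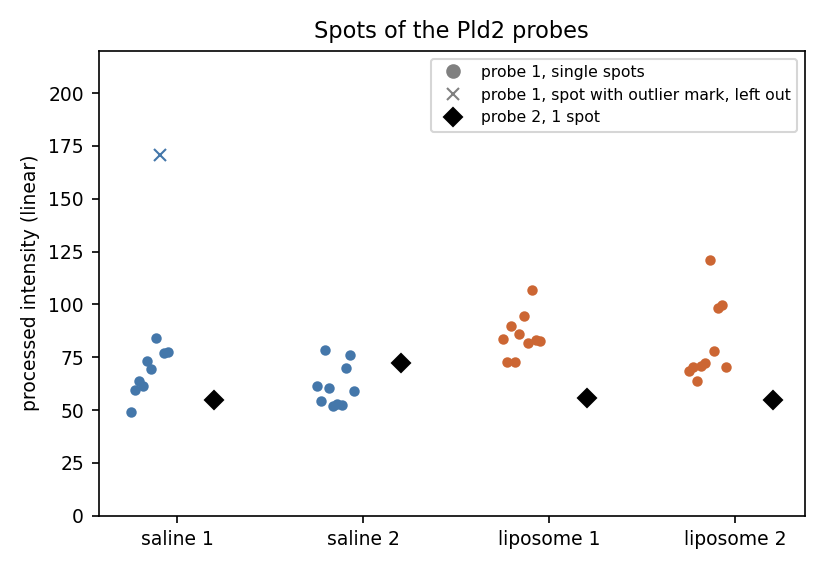
Processed intensity on a linear scale (y axis) of every spot of the Pld2 probes on each array (x axis). Circles are the spots of the probe printed in 10 copies, the cross is the spot on saline 1 left out for its outlier mark, and diamonds are the probe with 1 spot. Circles of the saline and liposome arrays overlap, while their geometric means are higher on the liposome arrays, and the diamonds show no such order.

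Of the lysophospholipid acyltransferases, Lpcat3 places polyunsaturated fatty acids into phosphatidylcholine in the endoplasmic reticulum. Its probe (rn4 chr4:160826146-160826279, of which 60 bases are read) had intensities of 2692 and 2205 on the saline arrays and of 3669 and 3564 on the liposome arrays. The liposome arrays were almost equal and lay above both saline arrays. The log2 difference was 0.44 ± 0.15 (SE, n = 2 per group; 95% interval 0.039 to 0.84), and it did not pass (limma adjusted p = 0.131).

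Lpcat2 encodes an enzyme that makes platelet-activating factor in inflammatory cells. A probe that the files describe as this acyltransferase but name only by a transcript (rn4 chr19:15179595-15179654, minus strand) falls outside the choice of probes by gene name and is not counted above. It read 2101 and 1912 on the saline arrays and 1351 and 1517 on the liposome arrays, so its liposome arrays were the lower ones. Its log2 difference was -0.62 ± 0.13 (SE, n = 2 per group; limma adjusted p = 0.0646), and with normexp background correction it was -0.58 (limma adjusted p = 0.0454).

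**Figure D3:**
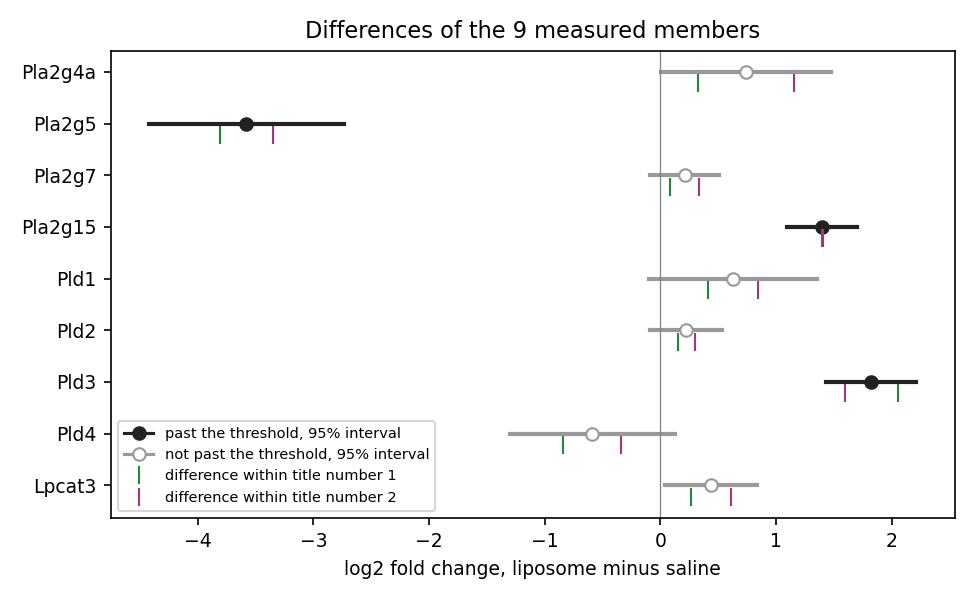
Log2 fold change, liposome minus saline (x axis), of the 9 genes measured (y axis), with 95% intervals from limma (n = 2 arrays per group). Ticks under each point give the difference between the arrays that share a title number. The ticks of Pla2g15 coincide near 1.40, while those of Pla2g4a lie at 0.32 and 1.16. The point of Pla2g5 is a fitted value that rests on signals within the background.

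The genes that did not pass differ in what limits them. The saline arrays lay 0.74, 0.69, 0.70 and 0.33 log2 units apart for Pla2g4a, Pld1, Pld4 and Lpcat3, with saline 1 above saline 2 each time, and the liposome arrays lay 0.10, 0.26, 0.20 and 0.011 apart. With the title number as a block none of these genes passed either (limma adjusted p = 0.110, 0.0682, 0.0875 and 0.108, in that order). The saline arrays also differed in T cell markers (13 of 13 measured), which summed to 22.2 on saline 1 and 53.6 on saline 2, and in natural killer cell markers (9 of 11 measured), which summed to 28.0 and 88.4. On the liposome arrays these sums were 22.3 and 41.2 for T cells and 11.4 and 34.5 for natural killer cells, and by limma 0 genes of either list passed (1 and 0 at an unadjusted p under 0.05). That fit leaves out the title number, and both arrays numbered 2 had the higher sums. Within each number the natural killer cell markers were lower after liposomes for 9 of 9 genes, with median log2 differences of -1.24 and -1.33. With the number as a block 7 of the 9 fell, beside 988 of all 12858 genes. For T cell markers 4 of 13 were lower and 2 higher within both numbers, and with the block 1 rose and 0 fell. Whether these cells had a part in the spread was not tested. For Pla2g7 the interval ends at 0.51, so a 2-fold rise would lie outside it. That of Pld2, which ends at 0.53, comes from 1 of its probes, and these disagreed in direction. Both intervals reflect only the spread of these arrays, which can be technical.

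The call of Pla2g5 was lost with each array left out in turn (limma adjusted p = 0.0503 to 0.0657), although the fitted difference stayed between -3.98 and -3.18. Pla2g15 and Pld3 kept their calls without either saline array and lost them without either liposome array, where limma called 0 genes of the whole table (2177 and 2397 at an unadjusted p under 0.05). Their log2 differences then ranged from 1.33 to 1.46 and from 1.71 to 1.94 over the 4 omissions, with limma adjusted p of 0.0420 to 0.104 and of 0.0438 to 0.0908.

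**Figure D4:**
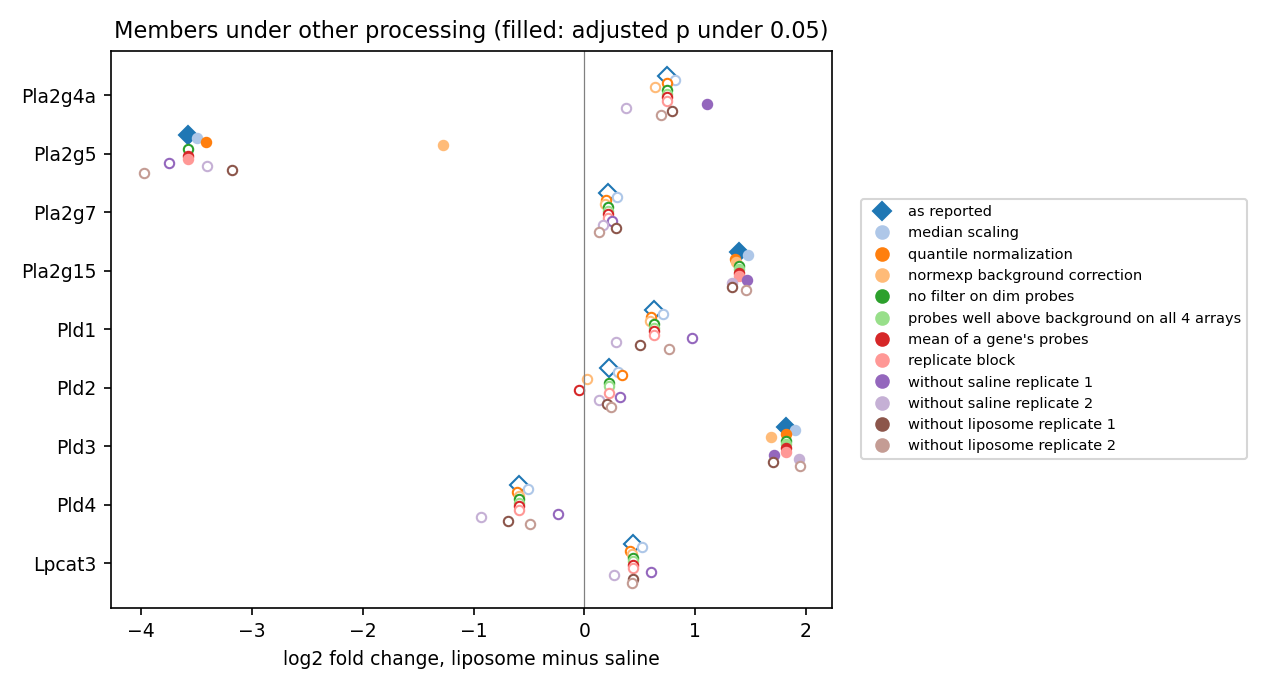
Log2 fold change, liposome minus saline (x axis), of the 9 genes (y axis) as reported (diamonds) and under other processing or with 1 array left out (circles). Filled symbols passed an adjusted p of 0.05. Pla2g15 and Pld3 stay between 1.33 and 1.94 throughout, Pla2g5 moves to -1.28 with normexp, and 1 setting puts Pld2 below 0.

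Beyond these genes, 153 further genes of phospholipid breakdown, rebuilding, synthesis and transfer were listed, of which 117 were measured. By limma, 13 rose, 7 fell and 97 did not pass, so that 17.1% passed beside 8.89% of all genes. These lists were also chosen with earlier results of these data known, so the higher share is no independent result. Their median log2 difference was -0.036, beside -0.035 over all genes. With median scaling 15 rose and 4 fell, with quantile normalization 12 and 3, with normexp 14 and 11, and with the title number as a block 14 and 12, so the split between rises and falls depends on the setting.

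Lysophospholipases, which remove the lysophospholipids left by phospholipase A2, were listed together with other lyso-lipid hydrolases, among them Mgll. Of the 10 genes measured in this list 5 rose and 0 fell, with a median of 0.32 (4 rose with quantile normalization). Mgll, the gene of monoacylglycerol lipase, was at background level on the saline arrays and at least 11.3-fold higher on the liposome arrays (limma adjusted p = 0.00752). The filter on dim signal kept it only for its liposome arrays, so the p-value is not separate support for the rise. Tmem86a, a lysoplasmalogenase, rose by 1.80 ± 0.19 (SE, n = 2 per group; limma adjusted p = 0.0216), and Abhd12, a lysophosphatidylserine lipase, by 0.90 ± 0.10 (limma adjusted p = 0.0243). Lyplal1 (0.73) and Abhd4 (0.56) were the other ones that rose. Lypla1 (-0.024), Lypla2 (-0.019), Gde1 (0.069), Abhd6 (-0.36) and Tmem86b (-0.68, limma adjusted p = 0.0595) did not pass. In this list 6 genes lay higher and 4 lower, so the rises do not extend to all of it.

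Among 23 other phospholipases A and B, 1 rose and 0 fell, and the median was -0.098. The one that rose was Pla2g12b, which encodes a secreted protein of the family that lacks catalytic activity. It was at background level on the saline arrays and at least 2.84-fold higher on the liposome arrays (limma adjusted p = 0.0125). Like Mgll, it was kept by the filter only for its liposome arrays. Among 8 other phospholipases D and phosphatidate phosphatases, 0 rose and 3 fell, with a median of -0.39. Enpp2, the gene of autotaxin, which makes lysophosphatidate, was at least 2.97-fold lower (limma adjusted p = 0.0345), with liposome arrays at background level. The filter kept Enpp2 only for its saline arrays. Napepld, which makes N-acylethanolamines, fell by 0.996 ± 0.154 on the log2 scale (SE, n = 2 per group; limma adjusted p = 0.0396), and the phosphatidate phosphatase gene Plpp2 fell by 0.55 ± 0.099 (limma adjusted p = 0.0488). After quantile normalization none of the 3 passed (limma gave adjusted p = 0.0544, 0.0560 and 0.0513), and with median scaling only Enpp2 did (0.0538 for Napepld and 0.0569 for Plpp2). Plpp2 also missed when probes were averaged per gene (0.0502).

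Of 15 other acyltransferases of lysophospholipids and glycerol phosphate, 1 rose and 2 fell, with a median of -0.14. Agpat5 rose by 0.70 ± 0.10 (SE, n = 2 per group; limma adjusted p = 0.0361). Agpat3 fell by 1.09 ± 0.17 (limma adjusted p = 0.0387) and Gpat3, well above background on 1 of 2 liposome arrays, fell by 0.64 ± 0.11 (limma adjusted p = 0.0455). Gpat3 did not pass with normexp (-0.32, limma adjusted p = 0.103) or quantile normalization (0.0791). Agpat3 did not pass with median scaling (0.0529) or the mean of its probes (-0.87, limma adjusted p = 0.101), nor did Agpat5 with that mean (0.0589). Lpcat1 (0.048) and Lpcat4 (-0.80), which share the Lpcat name with members, did not pass (limma adjusted p = 0.876 and 0.120).

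In phospholipid synthesis 3 of 18 genes rose and 0 fell. These were Ptpmt1, a phosphatase on the way to cardiolipin (1.02 ± 0.10, SE, n = 2 per group), Pcyt1a, which sets the rate of phosphatidylcholine synthesis (1.01 ± 0.10), and Pemt, which methylates phosphatidylethanolamine (0.85 ± 0.094), with limma adjusted p of 0.0206, 0.0212 and 0.0228. With normexp Pemt was at 0.35 and did not pass (limma adjusted p = 0.0995). Of 23 genes of phospholipid transfer, flippases and scramblases, 3 rose and 0 fell, with a median of -0.00093. They were the transporter gene Abca1 (3.91 ± 0.14), the phospholipid transfer protein gene Pltp (3.48 ± 0.15) and the transporter gene Abcg1 (0.97 ± 0.10), with limma adjusted p of 0.00752, 0.00757 and 0.0216. Of 8 phospholipase C genes 0 rose and 1 fell, Plcb1, by 1.01 ± 0.15 (limma adjusted p = 0.0361).

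The prostanoid and leukotriene steps that use the arachidonate released by phospholipase A2 were measured for 12 of 16 genes, of which 0 rose and 1 fell. This was Hpgds, the prostaglandin D synthase of blood-derived cells, which fell by 1.95 ± 0.17 on the log2 scale (SE, n = 2 per group; limma adjusted p = 0.0160). Mast cell and basophil markers, cells that also carry this enzyme, were measured for 9 of 11. They summed to 15.2 and 24.0 on the saline arrays and to 13.1 and 15.8 on the liposome arrays. By limma 0 passed, and 3 had an unadjusted p under 0.05, beside 4181 of all 12858 genes. With the title number as a block 3 fell, beside 988 of all 12858 genes. Their part in the fall of Hpgds was not tested.

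**Figure D5:**
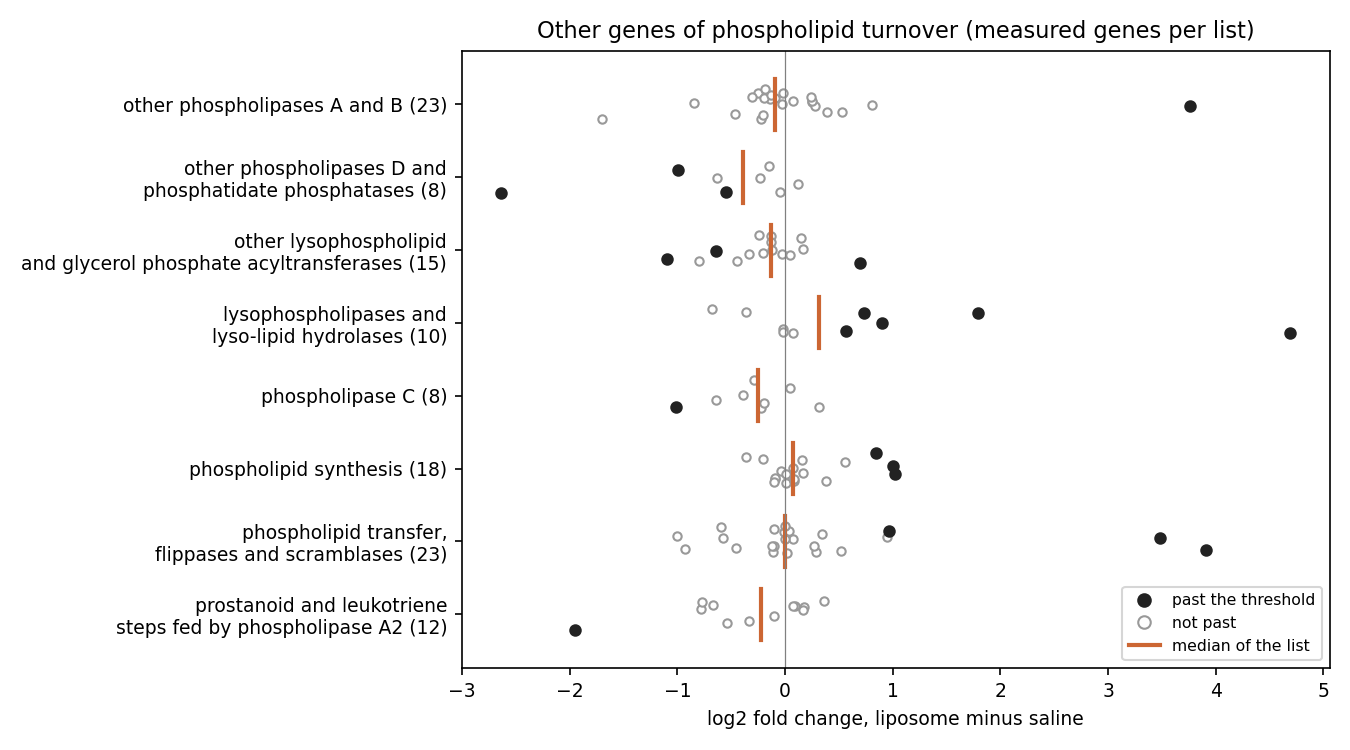
Log2 fold change, liposome minus saline (x axis), of the 117 further genes measured, by list (y axis, number measured in parentheses). Filled circles passed an adjusted p of 0.05 and orange bars are medians. Lysophospholipases and lyso-lipid hydrolases have 5 filled circles on the right, and the list of other phospholipases D has 3 on the left. The circles of Mgll, Pla2g12b and Enpp2 are fitted values that rest on signals within the background.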

How the data were processed

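Gene expression was measured on 4 one-colour Agilent arrays, all on 1 slide. The submitters' processing notes name Agilent Feature Extraction 10.7.3.1. The authors deposited linear spot intensities. Per the file headers, the processed intensity was background-corrected within an array and not scaled between arrays.

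Control spots and outlier spots were left out, copies of a probe averaged on the log2 scale, and the 75th percentile of each array subtracted. Intensities per array in the text are before that scaling. Probes were kept where both arrays of a group lay well above background, the brightest per gene was used, and 278 probes without a value on some array were left out. Symbols came from RefSeq (GRCr8) for 18006 probes. Exon or untranslated region on rn4 is not given, since no annotation of it was used here. Limma 3.58.1 (R 4.3.3, data.table version 1.17.8; lmFit, eBayes) was fitted to 12858 genes by group, and the fit was tested on simulated data. An exact permutation test of 2 against 2 cannot go below 0.333, so none was used.

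The members and all gene lists were chosen with earlier results of these data known, as was the rule for naming genes: all members, up to 3 genes per pathway list and direction by smallest adjusted p, and the gene nearest to each member that passed. Lyplal1, Abhd4, Lypla1, Lypla2, Gde1, Abhd6, Tmem86b, Lpcat1, Lpcat4, the neighbours of Pla2g5 and the markers Cd68, S100a4 and Nr4a1 were named outside that rule after their values were seen. Alternatives were other scalings, background correction, filters and probe rules, the title number as a block, and each array left out.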

Additional observations from a re-analysis of the deposited data

How the results depend on the processing

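The 3 members past the threshold stayed 3 with median scaling, quantile normalization, normexp, the mean of a gene's probes and the replicate block, and were 2 of 8 with probes well above background on all 4 arrays, which leaves out Pla2g5. Without a filter on dim probes limma called 0 of 9 members, 0 of 11 member probes, 0 of 146 pathway genes and 0 of 21971 genes (smallest adjusted p 0.143, 3005 at an unadjusted p under 0.05), and the median of all genes shifted to -0.17. With 1 array left out, the counts were 0 to 3 for members, 0 to 2 for member probes (3 with all arrays), 0 to 9 for pathway genes and 0 to 499 for all genes. These are 499 without saline 1, 372 without saline 2, and 0 without liposome 1 or liposome 2, with 2177 and 2397 genes there at an unadjusted p under 0.05. There the lone array is assumed to vary as the other group does. Normexp called 1720 genes. Over 28 named genes, 303 alternative fits gave 199 with the same call, 101 that lost it, 2 that gained it and 1 that turned sign, Pld2 with the mean of its probes (-0.048).

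The titles do not say what exp1 and exp2 mark, so the main fit left the number out and a block on it was an alternative. Only 2 such pairs exist (correlation of their deviations 0.355 across genes). With the replicate block limma called 1816 genes (828 higher, 988 lower), beside 1143 without it. Of the pathway genes the block called 26 (14 higher, 12 lower), and normexp called 25 (14 higher, 11 lower).

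Only 2 arrays per group limit the precision. Pla2g5, Mgll, Pla2g12b and Enpp2 lay at background level on both arrays of 1 group, and Gpat3 on 1 liposome array. The filter on dim signal kept each of these genes only through the group in which it was high, so their p-values do not stand apart from that choice. Pld2 was dim but well above background on all 4.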

Other observations

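Among 10403 other tested genes with a symbol, compared by the distance between centred log2 values on the 4 arrays, the gene nearest to Pla2g15 was Tspan9 (distance 0.061), with a log2 difference of 1.43 beside 1.40. The gene nearest to Pld3 was Comtd1 (distance 0.14; 1.80 beside 1.82), and the one nearest to Pla2g5 was Efhb (distance 0.37; fitted -3.85 beside -3.58).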
